A study of Mus musculus with 3 samples.

Results

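Krt7, Krt8, Krt18, Krt19, Krt5, Krt14, Msln and Upk3b are 6 keratin genes and 2 genes of the mesothelium, and their RNA was followed in mouse aorta. They were chosen by name as genes of simple epithelium, basal epithelium and mesothelium, from earlier results on these same arrays, so their ratios are given as a description and support nothing on their own. They are 8 of the 20830 genes with a symbol on the array and are read by 10 probes, since Krt7 and Krt8 have 2 probes each. On every array both dyes of all 10 probes were well above background and none was saturated, so all 8 genes passed the filter on dim probes.

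RNA of aortas from mice of a 129/CD1 background, 3 to 5 months old, was hybridised to 3 two-colour arrays on 1 slide. Cy5 carried the RNA of 1 sample labelled Plk1(+/-) per array, and Cy3 carried 1 wild-type pool, made from 3 samples and common to the arrays. Plk1 encodes polo-like kinase 1, which drives mitosis, and the comparison asks how its heterozygous loss bears on vessel RNA. The labels do not describe the allele, and their growth protocol speaks of stem cells although the tissue is given as aorta, so the tissue label was followed. All ratios are log2 of sample over pool. Cy5 was brighter than Cy3 throughout (median signals of 335 to 357 against 155 to 165 units), so raw signals are compared only within a dye. A value below 0 therefore means less signal in the sample labelled Plk1(+/-). No array had the dyes exchanged, so dye and genotype cannot be told apart, and the pool counts as 1 control sample whose own spread is not in the test.

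Probe spots well above background made up 66.0% to 69.0% in Cy3 and 77.0% to 80.8% in Cy5. The number of arrays limits the precision. Plk1 itself read -0.06, -0.08 and 0.42 in samples 1, 2 and 3, so its probe showed no lower level in the labelled samples, and whether that probe lies in the altered part of the gene is not known here. Over all 22083 features tested, 204 passed an adjusted p of 0.05 in the limma fit, which is 0.924%. Of these, 196 were lower (0.888%) and 8 were higher (0.0362%). Most of them were saturated: among the 21554 features without a saturated spot, 32 passed (0.148%), 24 lower and 8 higher. Saturated probe spots numbered 574 to 627 per array in Cy5 and 66 to 104 in Cy3. A saturated spot reads too low in its dye, so no direction is taken from saturated features. Smooth muscle genes read lower in the labelled samples and lymphocyte genes read higher, as given below beside the lists.

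Keratins are the intermediate filament proteins of epithelial cells. Each filament is built from pairs of a type I and a type II keratin, and a chain that lacks its partner is unstable. KRT8 with KRT18 is the basic pair of simple, single-layered epithelia, KRT7 and KRT19 are further type II and type I keratins of such epithelia, and KRT5 with KRT14 is the pair of the basal layer of stratified epithelia. Mesothelium, the flat cell layer that lines the pleural, pericardial and peritoneal cavities, also makes simple keratins, together with mesothelin (Msln), a surface glycoprotein, and uroplakin 3b (Upk3b), a membrane protein of the uroplakin family. The aortic wall itself is made mainly of smooth muscle, endothelium and adventitial fibroblasts.

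The probes are 60 bases long, and the parts that bear on how these genes were read are shown here, taken from the deposited files and written 5′ to 3′. Krt8 and Krt18 are the pair whose ratios are compared most closely below, so the stretch that 2 of their probes have in common is shown first. It is 11 bases long, in capitals, and is the longest run that any of the 45 pairs of these 10 probes shared. The next longest run between probes of different genes was 8 bases.
Krt8 probe A, first 30 bases: TGGTGTCCGAGtcttctgatgtcgtgtcca
Krt18 probe, first 30 bases: ggatggcagagTGGTGTCCGAGactaatga
Cross-hybridisation to other transcripts was not analysed here.

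The letters AATAAA, the common polyadenylation signal, were searched on both strands and were found on the printed strand of 3 of the 10 probes and on the opposite strand of 0. Of all 41174 probes of this length, 4.8% hold them on the printed strand and 4.2% on the opposite one. The 3 probes are shown, with the letters in capitals, because arrays of this kind read transcripts near their 3′ ends.
Krt7 probe A, last 30 bases: tAATAAAgggcctctctgagagagctgcat
Krt5 probe, 30 bases around the motif: tgacttcctccagagtctgtccAATAAAat
Msln probe, 30 bases around the motif: ggactcttgaactcAATAAAcagtggcata
A match is a description of the letters and not a mapped end.

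Probe positions are given in the mm7 build, as in the files. Which exon or UTR a probe lies in was not analysed here. Of the 8 genes, 4 lie on chromosome 15: Krt7 (probe A at 101413898 to 101413957 and probe B at 101409444 to 101409503, plus strand), Krt5 (101693240 to 101693299, minus strand), Krt8 (probe A at 101983072 to 101983131 and probe B at 101982940 to 101982999, minus strand) and Krt18 (102018067 to 102018126, plus strand). Krt8 and Krt18 are close neighbours there, with Gm36026 and Gm41404 as the 2 genes listed between them in assembly GRCm38.p6. The type I genes Krt19 (100250117 to 100250176) and Krt14 (100312408 to 100313013, a probe whose 60 bases span 606 bases of genome) lie on the minus strand of chromosome 11. Msln lies on the minus strand of chromosome 17 (23931864 to 23931923) and Upk3b on the plus strand of chromosome 5 (135015932 to 135015991).

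Krt18, the type I partner of the basic simple pair, read lower in all 3 labelled samples and by nearly the same amount. Its background-uncorrected Cy5 signal was 1789, 1713 and 1804 units in samples 1, 2 and 3, and its Cy3 signal in the pool was 1105, 1094 and 1046 units on the same arrays. After normalization the log2 ratios were -0.60, -0.64 and -0.62. No sample stands apart from the others. The mean was -0.62 ± 0.02 (SD, n = 3; 95% interval -0.79 to -0.45), 1.53-fold lower than the pool. Krt18 was the 1 gene of the 8 that passed the limma test over all features, with an adjusted p of 0.0497, which is just inside the threshold of 0.05. That count of 1 of 8 is given beside the 0.888% of all features that passed in the lower direction, and nothing is read from it because the genes were chosen with these ratios known. The gene did not pass in 9 of 12 settings, counting the main one. With saturated features left out the adjusted p was 0.223. Over the alternatives it ran from 0.0455 to 0.437, with 0.098 without sample 1, 0.437 without sample 2 and 0.183 without sample 3. Every alternative kept the mean below 0, from -0.68 to -0.24. Several of them reuse the main ratios of this gene, so they could not change its sign.

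Krt8, the type II partner, is read by 2 probes. Probe A, the brighter one and the one used in the fit, gave log2 ratios of -0.22, 0.02 and -0.37 in samples 1, 2 and 3. Sample 2 was level with the pool and the other two were below it. The mean was -0.19 ± 0.20 (SD, n = 3), with a 95% interval from -0.47 to 0.08. Probe B gave -0.23, -0.21 and -0.36, a mean of -0.27 ± 0.08 (SD, n = 3), below 0 in all 3 samples. The 2 probes therefore differ mainly in sample 2. With each kept probe fitted on its own, probe B had a limma adjusted p of 0.199.

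Set against its partner on the same array, the Krt18 ratio was lower than that of Krt8 probe A by 0.37, 0.66 and 0.25 log2 units in samples 1, 2 and 3. Probe B of Krt8 was not set against Krt18 in this way. In sample 2 it read -0.21 where probe A read 0.02, so the gap of 0.66 holds for probe A only. The mean difference of Krt18 minus Krt8 probe A was -0.43 ± 0.21 (SD, n = 3). It was below 0 on all 3 arrays under the 3 scalings compared, with -0.31, -0.66 and -0.16 on the scanner software's processed signals and -0.25, -0.57 and -0.10 under median centring. A difference of ratios does not show which of the probes moved. The dyes were not exchanged, so unequal change in RNA and a dye bias of a probe cannot be told apart here.

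**Figure D1:**
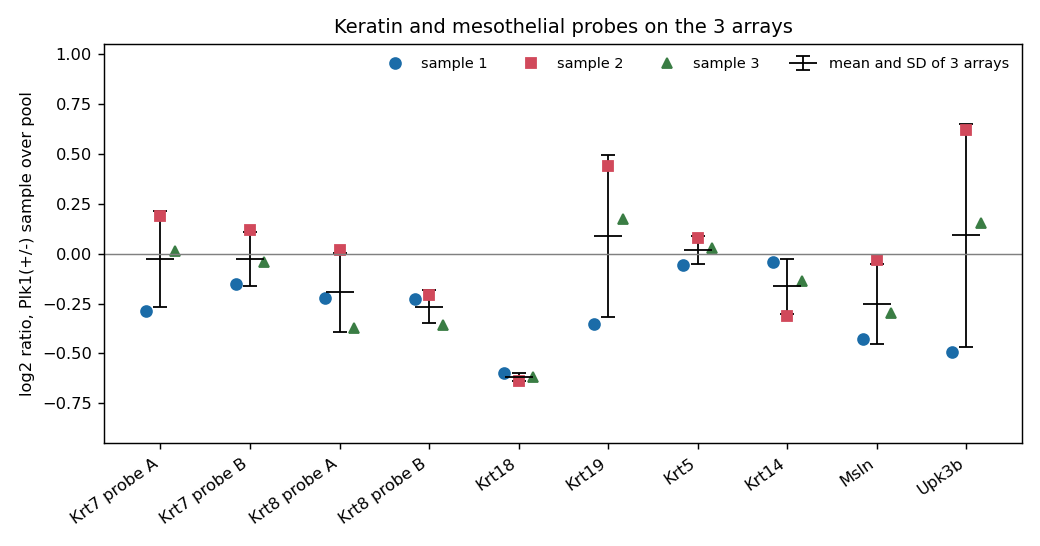
Log2 ratio of each Plk1(+/-) sample over the wild-type pool (vertical axis) for the 10 probes (horizontal axis); symbols are the 3 samples, the short horizontal line is their mean and the bar is the SD. The 3 Krt18 points lie together near -0.62, while Upk3b runs from -0.49 to 0.62 and Krt19 from -0.35 to 0.44.

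Krt7 and Krt19, the other keratins of simple epithelium, lay below the pool in sample 1 and above it in sample 2. Krt7, a type II keratin, read -0.29, 0.19 and 0.01 on probe A. Its dimmer probe B, not used in the fit, read -0.15, 0.12 and -0.04. Both probes were lowest in sample 1 and highest in sample 2. Probe A averaged -0.03 ± 0.24 (SD, n = 3) with a 95% interval from -0.34 to 0.28.

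Krt19, a short type I keratin without the usual tail domain, spread further. Its raw Cy5 signal was 603, 1112 and 897 units in samples 1, 2 and 3, while the pool read 341, 359 and 329 units in Cy3. The ratios were -0.35, 0.44 and 0.18. Sample 1 was below the pool and samples 2 and 3 were above it. The mean of 0.09 ± 0.40 (SD, n = 3) has a 95% interval from -0.38 to 0.55, so a change of either sign smaller than that was not resolved with 3 arrays. Without sample 2 the mean turned to -0.089.

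The basal pair lay close to the pool. Krt5 read -0.06, 0.08 and 0.03, a mean of 0.02 ± 0.07 (SD, n = 3; 95% interval -0.17 to 0.20). Krt14 read -0.04, -0.31 and -0.14, a mean of -0.16 ± 0.14 (SD, n = 3; 95% interval -0.39 to 0.06). Krt14 was below the pool in all 3 samples and was lowest in sample 2, the sample in which 6 of the 8 genes were highest. For Krt5 the spread of ratios was small although both dyes varied between arrays: its Cy3 level ranged over 1.36-fold and its Cy5 level over 1.41-fold.

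Of the mesothelial genes, Msln was the brighter probe, with Cy5 signals of 3839, 6425 and 5467 units and Cy3 signals of 2030, 2596 and 2432 units. Its ratios were -0.43, -0.03 and -0.30, below the pool in all 3 samples and nearest to it in sample 2. The mean was -0.25 ± 0.20 (SD, n = 3) with a 95% interval from -0.53 to 0.02.

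Upk3b had the widest spread of the 8. Its raw Cy5 signal was 1100, 2399 and 1831 units in samples 1, 2 and 3, against a steady Cy3 signal of 651, 651 and 634 units. The ratios were -0.49, 0.62 and 0.15. Sample 1 was below the pool, sample 2 above it and sample 3 between them. The mean was 0.09 ± 0.56 (SD, n = 3) with a 95% interval from -0.53 to 0.71, and without sample 2 it turned to -0.17.

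Counted together, 3 of the 8 genes were below the pool on all 3 arrays (Krt18, Krt14 and Msln), beside 17.9% of all features without a saturated spot. None of the 8 was above the pool on all 3 arrays, beside 26.8% of features. At an unadjusted limma p under 0.05, Krt18 alone passed, beside 17.8% of features. The other 7 genes had adjusted p-values from 0.289 (Msln) to 0.912 (Krt5). Since the genes were chosen with these ratios known, none of these counts is read as a result about them.

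For 7 of the 8 genes the Cy5 level of the samples ranged more widely than the Cy3 level of the pool, which was the same RNA on each array. This was general on the arrays: 73.6% of features without a saturated spot had the wider range in Cy5, with median ranges of 0.33 log2 units in Cy5 and 0.19 in Cy3. After normalization of both dyes, the Cy3 level of Upk3b ranged over 1.09-fold across the arrays and its Cy5 level over 2.06-fold. For Krt19 the ranges were 1.01-fold in Cy3 and 1.74-fold in Cy5. Krt8 and Krt7 likewise varied little in the pool, 1.03-fold and 1.10-fold, and 1.30-fold and 1.29-fold in the samples. A wider Cy5 range was found in 7.89% of features than for Upk3b, in 13.0% than for Krt19, and in 42.1% and 43.1% than for Krt8 and Krt7, so the last pair was ordinary in this respect. Krt14 was the exception among the 8, with 1.23-fold in Cy3 and 1.18-fold in Cy5. The 3 Cy3 readings are of 1 pool, so their range holds the error of labelling, hybridisation and scanning but not the variation between wild-type mice. Whether the Cy5 range of the samples exceeds that between wild-type mice was therefore not measured.

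**Figure D2:**
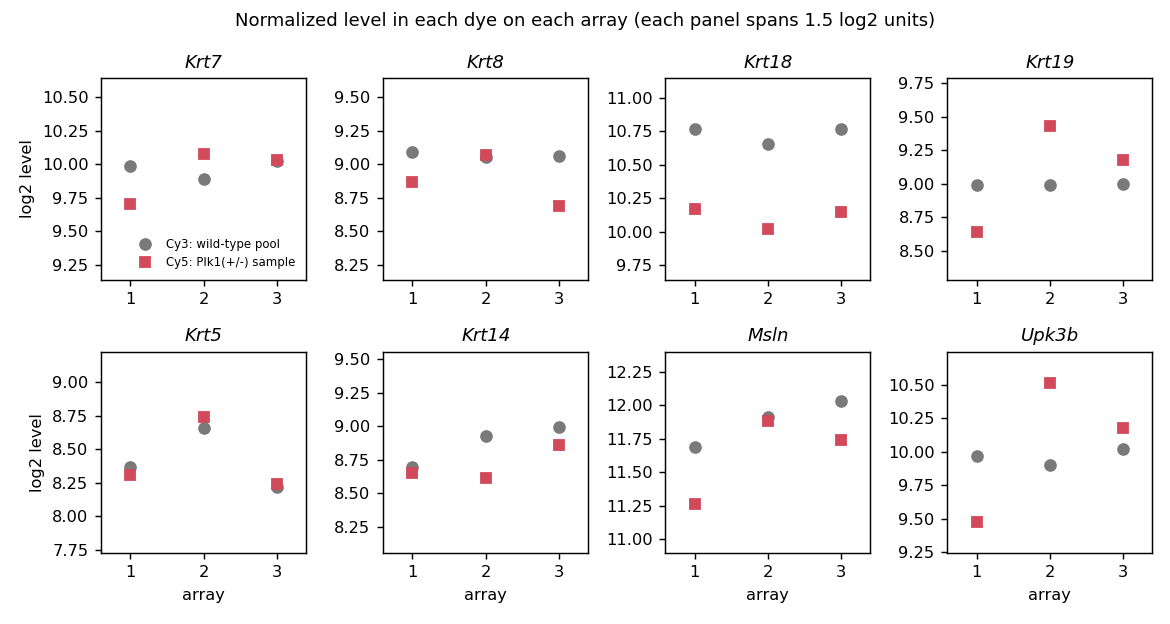
Normalized log2 level of each gene in Cy3 (grey circles, the wild-type pool) and Cy5 (red squares, the Plk1(+/-) sample) on arrays 1, 2 and 3, with panels of equal height. The pool's readings of Upk3b and Krt19 span 1.09-fold and 1.01-fold, and the samples' readings span 2.06-fold and 1.74-fold.

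Set against all features without a saturated spot, the width of the ratio over the 3 arrays was exceeded by 6.09% of features for Upk3b and 10.7% for Krt19. For Krt18 it was exceeded by 98.2% of features, so the gene with the steadiest ratio of the 8 was also among the steadiest on the array in the main setting. Its ratio ranged over 1.03-fold, less than its own level in Cy3 (1.08-fold) or Cy5 (1.11-fold). The SD of its ratio was 0.020 in the main setting, 0.039 with the scanner software's processed signals and 0.054 under median centring. The median feature ranged over 0.28 log2 units.

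The differences between samples ran the same way in several of the 8 genes, a pattern noticed after their values were seen. Of the 8, 5 were lowest in sample 1, intermediate in sample 3 and highest in sample 2: Krt7, Krt19, Krt5, Msln and Upk3b. That order was held by 9.45% of all features without a saturated spot. Sample 2 exceeded sample 1 by 1.11 log2 units for Upk3b (2.16-fold), 0.79 for Krt19 (1.73-fold), 0.47 for Krt7, 0.39 for Msln and 0.24 for Krt8. Of all these features, 1.33% had a larger rise from sample 1 to sample 2 than Upk3b, 2.42% than Krt19 and 5.16% than Krt7. Krt18 differed by -0.04 between these samples and Krt14 by -0.27. Each sample was hybridised once, so no test of 1 sample against another was possible.

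Part of a wider list of mesothelium genes had the same order of samples. Of the 13 genes in a mesothelium list beside Msln and Upk3b, 7 had the order sample 1, sample 3, sample 2 from low to high, and 10 were lowest in sample 1, beside 9.45% and 31.7% of features without a saturated spot. The list was chosen with earlier results of these data known, so these counts are a description and nothing is read from them. Lrrn4, a membrane protein enriched in mesothelium, read -0.36, 0.75 and 0.30. Upk1b, a uroplakin that partners uroplakin 3 proteins, read -0.44, 0.56 and 0.02. Wt1, a transcription factor of mesothelium and its derivatives, read -0.20, 0.61 and 0.31. These 3 were each lowest in sample 1 and highest in sample 2, as Upk3b was. The remaining 4 with this order were Muc16, a membrane mucin that binds mesothelin (-0.61, 0.31 and 0.05), Bnc1 (-0.38, 0.45 and -0.24), Gpm6a (-0.46, 0.28 and -0.20) and Rspo1 (-0.39, 0.15 and -0.11). A second, dim probe of Muc16 did not have this order (0.19, 0.06 and 0.11), and a second probe of Gpm6a had it with smaller differences (-0.06, 0.08 and 0.03).

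The list was not uniform. Slpi, a secreted protease inhibitor that many epithelia and leukocytes also make, read -1.61, 0.12 and 1.66, and so was highest in sample 3. Cldn15 (-0.06, -0.18 and 0.28) and Aldh1a2 (-0.16, -0.09 and 0.04) were highest in sample 3 as well. Calb2 was lower in sample 2 than in sample 1, by 0.31 log2 units. Itln1 was not well above background in the pool on any array, so its ratio has no measured denominator. Bcam, a laminin-binding adhesion molecule also made by endothelium and smooth muscle, read -0.73, -0.67 and -0.59 and passed the limma test (mean -0.66 ± 0.07, SD, n = 3; adjusted p = 0.0497). No listed gene passed with saturated features left out. On the summed normalized level of the list, the pool read 24129, 23840 and 22246 units and the samples 13727, 25576 and 38720 units, with Slpi alone ranging over 7.51-fold in Cy5. For the 8 keratin and mesothelial genes the pool's sum was 8867, 9299 and 9864 units and the samples' sum was 6743, 9394 and 8507 units. In RNA of a whole tissue piece, fewer cells of a type and less RNA per cell cannot be told apart.

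**Figure D3:**
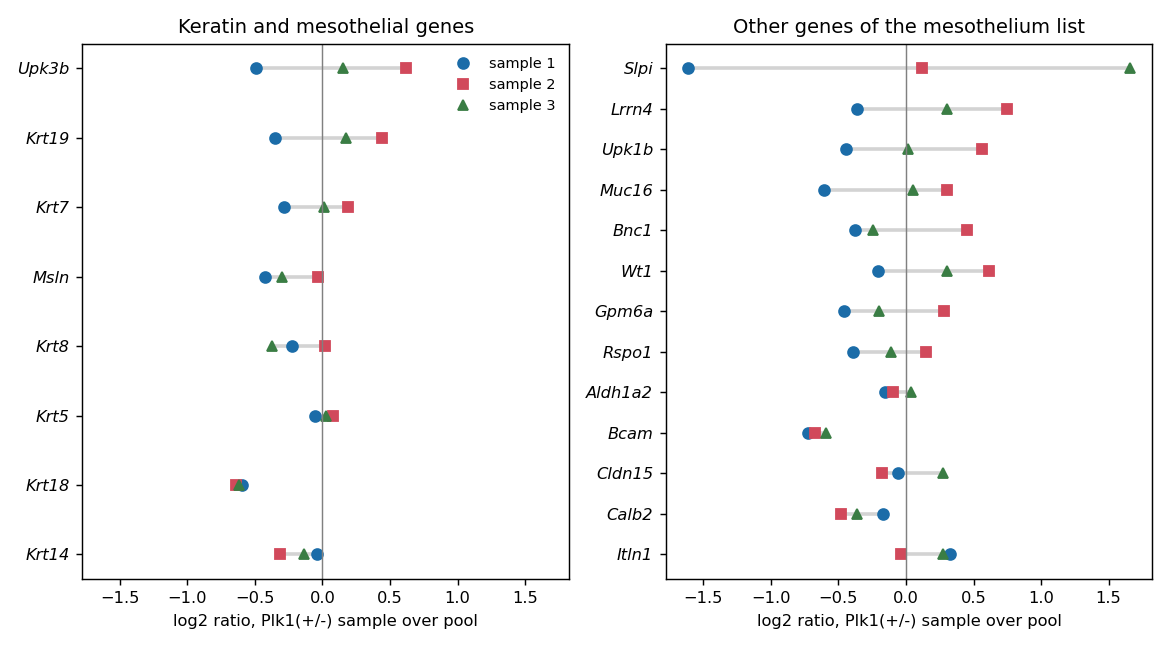
Log2 ratio over the pool (horizontal axis) of each sample (symbols) for the 8 genes (left) and the other 13 genes of the mesothelium list (right), ordered by sample 2 minus sample 1; grey bars span the 3 samples, and Itln1 was not well above background in the pool. In the upper rows sample 1 lies left of 0 and sample 2 to its right, as for Upk3b (-0.49 and 0.62) and Lrrn4 (-0.36 and 0.75), while Krt18 and Bcam lie below 0 with little spread.

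Marker lists of other epithelia did not show these sample differences to the same size in their medians. The 8 genes had medians of -0.32, 0.05 and -0.06 in samples 1, 2 and 3, and the mesothelium list had -0.39, 0.15 and 0.04. The medians over all features were 0.04, 0.01 and 0.04. For 11 of 16 genes of epithelial junctions and identity that were measured, such as the claudins and Cdh1, the medians were 0.03, 0.01 and 0.11 and none passed the adjusted test. At an unadjusted p under 0.05, the tight junction gene Cldn3 had a mean of -0.32. For 14 of 18 genes of stratified epithelium the medians were 0.05, 0.01 and -0.12. None of them passed the adjusted test, and at an unadjusted p under 0.05 Perp had a mean of -0.65. The hemidesmosome collagen gene Col17a1 was the other gene past that p, but it was not well above background in the pool on any array, so no size is given.

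Over all keratin genes, 35 of the 46 on the array passed the filter on dim probes and their medians were 0.02, 0.04 and 0.01. With both dyes required to be well above background on all arrays, 20 keratin genes were left. Krt18 was the 1 keratin of the 35 that passed the adjusted test. At an unadjusted p under 0.05, 3 were higher and 2 lower. Among them Krt222 had a mean of 0.30, while Krt20 and Krt32 were not well above background in the pool on any array. Of all features without a saturated spot, 17.8% passed that p in either direction. The same share stands beside the other counts at that p in this paragraph. Of 12 genes of desmosomes, the junctions that anchor keratin filaments, and of other linkers of the cytoskeleton such as Plec, none passed the adjusted test. Their medians were 0.00, -0.05 and -0.14, with 2 higher and 3 lower at an unadjusted p under 0.05. Desmoplakin (Dsp), which links keratins to desmosomes, had a mean of -1.23, and the plakophilin Pkp3 had a mean of 0.93. The non-keratin intermediate filament genes had medians of 0.15, 0.22 and -0.26 over 12 genes without a saturated spot. None of these 12 passed the adjusted test. Of them Nes (nestin), the muscle filament gene Des and Synm were lower at an unadjusted p under 0.05, with means of -0.50, -0.83 and -0.28. The medians hide a group of neuronal filament genes, picked out after their values were seen, that were far above the pool in sample 1 and below it in sample 3. Nefl read 1.68, 0.55 and -0.83 in samples 1, 2 and 3. Nefm, Nefh, Prph and Ina ran the same way. Vim, the vimentin gene, read lower and passed the adjusted test on a saturated probe, so neither a fold nor a direction is taken from it.

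**Figure D4:**
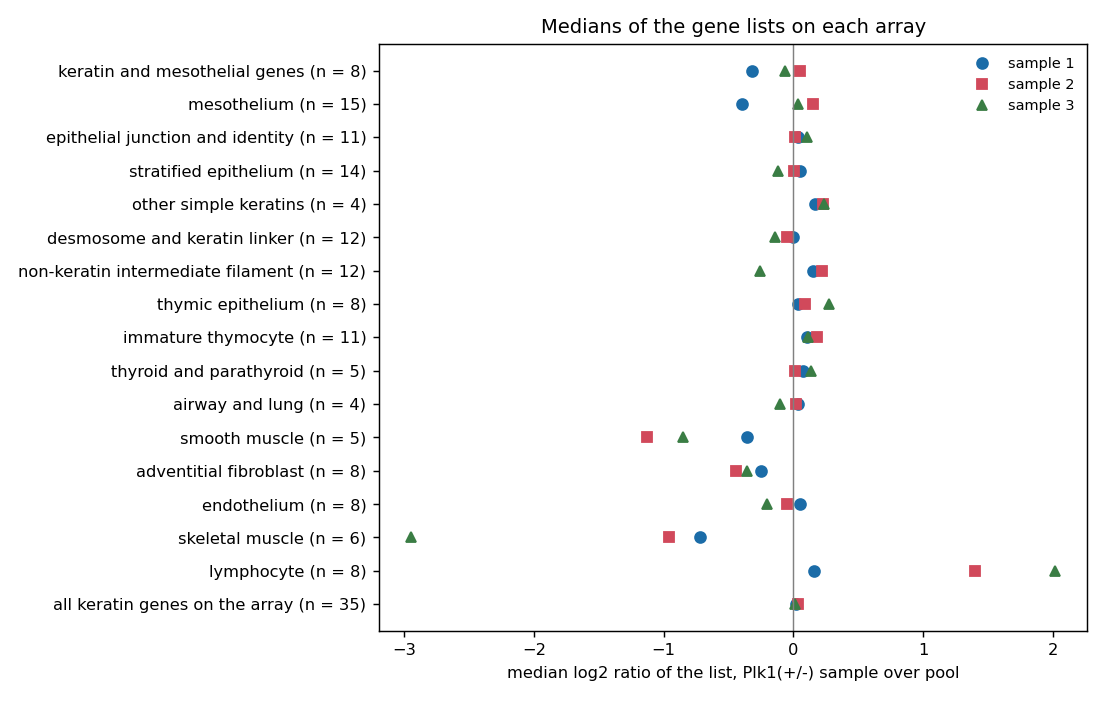
Median log2 ratio over the pool (horizontal axis) of each gene list (rows, with the number of genes without a saturated spot) in each sample (symbols). The medians of the 8 genes and of the mesothelium list lie lowest in sample 1 (-0.32 and -0.39), those of the smooth muscle list lie below 0 in all samples, and those of the lymphocyte list reach 2.02 in sample 3.

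Markers of other tissues near the aorta also differed between the samples. The 5 smooth muscle genes without a saturated spot had medians of -0.36, -1.13 and -0.85, and all 5 were lower at an unadjusted p under 0.05. Of all 21554 features without a saturated spot, 1829 were lower and 2010 higher at that p. Acta2 and Tagln read lower and passed the adjusted test on saturated probes, so neither a fold nor a direction is taken from them. The summed level of the 5 was 74011 to 74629 units in the pool and 28561 to 51456 in the samples, and all 8 listed genes, saturated ones included, were well above background throughout. The 8 lymphocyte genes had medians of 0.16, 1.40 and 2.02, with 5 higher at that p, and a summed level of 3864 to 4190 units in the pool and 4380 to 21521 in the samples. The 6 skeletal muscle genes had -0.72, -0.95 and -2.95. The lowest sample for the mesothelium list, sample 1, was thus the one nearest to the pool for smooth muscle and lymphocyte genes. Of the 7 fat genes, 6 were saturated. Ucp1, Cidec, Fabp4 and Cidea of these read lower and passed the adjusted test. Neither a fold nor a direction is taken from these saturated probes. The 1 unsaturated gene, Lep (leptin), read 0.14, -0.13 and -1.35.

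The thymic epithelium list had medians of 0.03, 0.09 and 0.27. Its defining gene Foxn1 was not well above background in Cy3 on any array. Cd83, which dendritic cells and activated lymphocytes also make, read -0.01, 1.16 and 1.63 and was the 1 gene of the list past an unadjusted p of 0.05. Aire was well above background in Cy3 on 1 array and read -0.05, 0.72 and 1.29. The immature thymocyte list had medians of 0.11, 0.18 and 0.12. At that p 3 of its 11 genes were higher, beside 17.8% of features without a saturated spot in either direction. Of the 3, Themis was not well above background in the pool. Thyroid and parathyroid genes had 0.07, 0.02 and 0.14, and airway and lung genes had 0.03, 0.02 and -0.10. The adventitial fibroblast list had -0.25, -0.44 and -0.36, and endothelium had 0.05, -0.05 and -0.20. The part of these lists in the ratios of the 8 genes was not tested.

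How much the sign of a mean rests on the scaling is shown by median centring in place of loess. It moved the median of all features from 0.04 to 0.23 log2 units. Under it the means of Krt7, Krt8, Krt14 and Msln turned to 0.31, 0.064, 0.075 and 0.18, of which Krt7 alone lay above that shifted median. Krt18 stayed below 0 at -0.24. The list medians of the mean ratios shifted too: adventitial fibroblast from -0.36 to 0.084, endothelium from -0.048 to 0.35 and mesothelium from -0.058 to 0.22. Smooth muscle stayed below 0 (-0.93 to -0.45) and lymphocyte stayed above it (1.17 to 1.43). The order of samples held in 5 of 8 genes with the scanner software's processed signals and under median centring, as in the main setting. The other settings that use all 3 arrays' scanner values keep the main ratios of these genes, so they could not change the order.

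**Figure D5:**
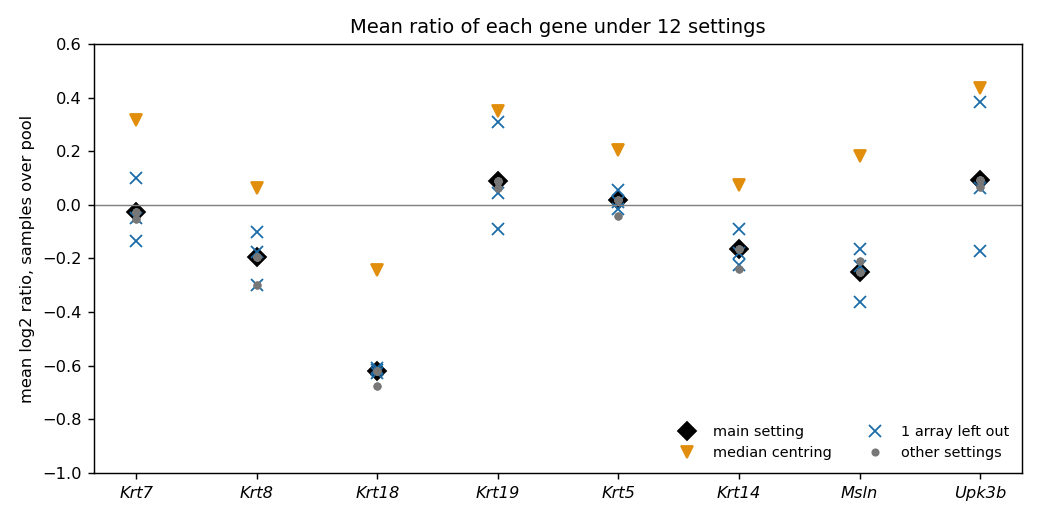
Mean log2 ratio over the pool (vertical axis) of each gene (horizontal axis) under the main setting (black diamond), median centring (orange triangle), 1 array left out (blue crosses) and the other settings (grey dots). Krt18 is the 1 gene below 0 in every setting drawn, from -0.68 to -0.24, and Upk3b runs from -0.17 to 0.44.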

How the data were processed

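RNA of 3 Plk1(+/-) aortas and 1 wild-type pool was measured on 3 two-colour arrays. The deposited scanner files hold spot intensity values, written by Agilent Feature Extraction, version 9.5.3.1 per the file headers. The deposited log10 ratio equals that of processed Cy5 over Cy3 to within 0.001 for 85.2% to 87.2% of probe spots. The authors' series values are log2, with slopes of 0.997 to 0.999 against it and an unstated centring. Mean signals were corrected with normexp (offset 50) and normalized by loess (controls at weight 0) in limma 3.58.1 (R 4.3.3; the data.table package was version 1.17.8). Control and outlier spots were dropped, then repeated spots averaged. A probe needed a signal well above background in 1 dye or the other on 2 or more arrays, and the brightest stood for its gene. Ratios were tested against 0 with lmFit and eBayes, Benjamini-Hochberg adjusted over 22083 features. On simulated ratios for 21548 features changes of 0.5, 1, 2 and 3 log2 units were found for 0, 24, 36 and 47 of 50 genes each, with 4 false calls.

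Names were updated through a GRCm38.p6 listing: 22951 probes through their accession, 3109 through a synonym and 6659 with a symbol already current, while 1461 kept the file's name and 6994 had none. The 8 genes and the 16 marker lists were chosen with earlier results of these data known. Named genes are the 8 with every probe, listed genes past the adjusted threshold, and some of the up to 4 genes per list with the smallest unadjusted p. Further mesothelium genes, the neuronal filament genes, Lep and Plec were named after their values were seen. The labels call the samples biological replicates.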

Additional observations from a re-analysis of the deposited data

How the results depend on the processing

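No paired analysis was possible because the samples form 1 group against 1 pool. The main fit called 204 features. With Agilent's processed signals 125 were called, and with median centring 9781 (7155 higher and 2626 lower, against 8 and 196). With saturated features left out 0 were called by limma, with 3813 at an unadjusted p under 0.05. Leaving out 1 array gave 0 to 173, with 1985 without sample 2 and 3101 without sample 3 at that p. Of the 8 genes, 1 was called in the main fit. The count was 0 with Agilent's processed signals, median centring, saturated features left out, an intensity trend, every probe on its own, the authors' table, and each array left out (0 to 0). Of the listed genes 8 were called, 47 with median centring, 0 with saturated features left out, and 0 to 10 with 1 array left out. Signs turned as follows. Krt5 turned to -0.040 with Agilent's processed signals and with the authors' table, and ran from -0.015 to 0.054 with 1 array left out. Under median centring Krt7 was 0.31, Krt8 0.064, Krt14 0.075 and Msln 0.18. With 1 array left out Krt7 ran from -0.14 to 0.10, Krt19 from -0.089 to 0.31 and Upk3b from -0.17 to 0.38. Apart from the settings' own construction, the cause was not tested. Signals near the local background and the 3 arrays limit what could be resolved.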
